A study of Mus musculus with 9 samples.

Results

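Prostaglandins are lipid signals made from arachidonic acid. Cytosolic phospholipase A2 (Pla2g4a) frees arachidonate from membranes, a cyclooxygenase (Ptgs1, the constitutive COX-1, or Ptgs2, the inducible COX-2) converts it to prostaglandin H2, and terminal synthases such as Ptges (microsomal prostaglandin E synthase-1) and Ptgis (prostacyclin synthase) turn that into the active products. The products act on G protein-coupled receptors (here Ptger2 and Ptger4 for prostaglandin E2, Ptgir for prostacyclin and Ptgfr for prostaglandin F2alpha), and Hpgd, 15-hydroxyprostaglandin dehydrogenase, begins their breakdown. In cartilage, prostaglandin E2 is known as a product of chondrocytes exposed to inflammatory signals. These 10 genes of the pathway were chosen with earlier results of these data known. They are described here out of 55471 genes in the annotation, and all 10 were among the 15362 genes that passed a filter on low counts.

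RNA was sequenced from 9 cultures of primary articular chondrocytes isolated from wild-type mice at postnatal day 5, in 3 groups of 3. The cells were infected with a control adenovirus (labelled Control, here Ad-Control), with an adenovirus that makes cells overexpress the osteoclast-associated receptor OSCAR (Ad-OSCAR), or with Ad-OSCAR followed by 5-aminosalicylic acid (5-ASA, an anti-inflammatory drug; Ad-OSCAR+5-ASA). The labels give a culture of 3 days, an infection of 2 h at 400 MOI (virus particles able to infect, per cell) and 36 h before 5-ASA; the study's methods differ from them in 2 days of culture before infection and a higher MOI, and add COLpep-coated plates (an OSCAR-binding collagen peptide) for every group, and 24 h with or without 10 µM 5-ASA. There was no 5-ASA-treated Ad-Control group. For chondrocyte cultures the methods name ICR or C57BL/6 J mice, and the study's reporting summary names newborn ICR mice of both sexes. Neither says which were sequenced. The methods describe n in general as independent samples, but no source ties the 3 cultures of a group to separate animals. The p-values therefore measure the spread between these cultures, which may be technical.

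Each library held between 19733431 and 28192725 counts assigned to genes (median 25378598). Oscar itself had 3 or 4 counts per library under Ad-Control and 173445 to 187278 under Ad-OSCAR. Treatment with 5-ASA left 80766 to 94199, a 1.96-fold fall (adjusted p = 1.76e-08). All 12 chondrocyte markers were measured, and their summed level was 43698 to 49600 CPM (counts scaled to library size) with Ad-Control. It was 3999 to 4409 CPM under Ad-OSCAR and 4815 to 5218 CPM after 5-ASA. With Ad-OSCAR 11 of the 12 were lower, and Prg4 (lubricin) was higher. The summed level of 10 myeloid markers was 15.9 to 18.3, 35.5 to 36.2 and 29.4 to 30.8 CPM in the same order, with Cd68, Cd14 and Lyz2 higher under Ad-OSCAR. Csf1r, the other tested marker, was at 0.657 to 0.899, 0.473 to 0.679 and 0.539 to 1.06 CPM, Fcgr3 had 1 to 9, 0 to 1 and 0 to 2 counts, and Ptprc, Itgam, Adgre1, Tyrobp and Cd53 had at most 3 counts in any culture. Endothelial markers summed to 8.19 to 11.4, 11.03 to 11.6 and 7.35 to 8.62 CPM. Of the 3 tested, Vwf (3 to 11, 58 to 82 and 23 to 25 counts) and Tek (8 to 16, 45 to 70 and 32 to 42 counts) were higher under Ad-OSCAR and Erg (144 to 216, 159 to 183 and 133 to 149 counts) was lower for its library size, and Pecam1 and Cdh5 had no more than 6 counts. Mast cell markers summed to 1.23 to 1.56, 1.26 to 1.56 and 2.12 to 2.85 CPM, with Cpa3 and Fcer1a at no more than 1 count. Nearly all of that sum was Kit, the only one tested, at 1.23 to 1.52, 1.22 to 1.39 and 2.12 to 2.81 CPM. Kit was higher with 5-ASA than in either other group. Fibroblast markers summed to 17957 to 19078, 10750 to 11710 and 13276 to 14618 CPM, and smooth muscle and pericyte markers to 260 to 284, 70.8 to 80.7 and 96.6 to 103 CPM. The sums hid opposite changes: under Ad-OSCAR 3 fibroblast markers were higher and 5 lower (Col3a1 went from 4161 to 4318 CPM to 6675 to 7179 CPM), and of the smooth muscle and pericyte markers 1 was higher (Rgs5, from 3.82 to 4.68 CPM to 28.9 to 33.6 CPM) and 2 were lower (Acta2, from 235 to 258 CPM to 37.6 to 45.4 CPM). Fewer cells of a type and less RNA per cell cannot be told apart in such cultures, and the part of these markers in the results below was not tested.

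The start regions shown are those of the 3 genes with the highest levels under Ad-OSCAR (Ptgs2, Ptges and Pla2g4a) and of Ptgs1, since the COX genes differed in how far they rose. Each is 280 bases of RefSeq sequence on GRCm38.p6, from 250 bases before the annotated start to 30 after it. Of the 10 genes 9 had such a window, the exception being Ptgis. Capitals mark matches, on either strand, to any of 5 motifs: the E-box CACGTG, the cyclic AMP response element (CRE) core TGACGT, the palindrome TTGCGCAA bound by C/EBP factors, the GC box GGGCGG and the TATA box TATAAA.
Ptgs2, chr1:150099781-150100060, plus strand: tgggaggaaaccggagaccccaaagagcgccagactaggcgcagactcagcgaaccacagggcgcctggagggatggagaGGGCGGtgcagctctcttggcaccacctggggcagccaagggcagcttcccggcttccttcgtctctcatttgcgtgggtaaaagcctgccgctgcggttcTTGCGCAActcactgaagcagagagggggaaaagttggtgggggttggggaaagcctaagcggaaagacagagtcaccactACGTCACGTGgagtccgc
Ptges, chr2:30903268-30903547, minus strand: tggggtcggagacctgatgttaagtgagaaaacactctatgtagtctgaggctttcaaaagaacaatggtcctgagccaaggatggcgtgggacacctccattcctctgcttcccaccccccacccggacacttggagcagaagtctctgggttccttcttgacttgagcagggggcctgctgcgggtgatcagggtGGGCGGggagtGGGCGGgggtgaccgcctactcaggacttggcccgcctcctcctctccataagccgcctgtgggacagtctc
Pla2g4a, chr1:149961261-149961540, minus strand: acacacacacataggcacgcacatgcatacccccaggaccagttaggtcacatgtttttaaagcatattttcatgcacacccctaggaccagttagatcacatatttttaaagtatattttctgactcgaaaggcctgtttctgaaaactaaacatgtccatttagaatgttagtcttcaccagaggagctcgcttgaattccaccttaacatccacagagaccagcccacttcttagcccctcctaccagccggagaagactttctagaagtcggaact
Ptgs1, chr2:36230176-36230455, plus strand: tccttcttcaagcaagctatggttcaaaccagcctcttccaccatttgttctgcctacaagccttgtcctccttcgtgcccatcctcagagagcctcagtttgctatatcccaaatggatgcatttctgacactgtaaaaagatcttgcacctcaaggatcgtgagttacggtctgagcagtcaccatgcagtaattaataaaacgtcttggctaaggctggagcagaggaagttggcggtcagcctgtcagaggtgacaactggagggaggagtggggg

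The Ptgs2 window held 4 of the 5 motifs. Its GC box began 170 bases and its C/EBP palindrome 69 bases before the start, and its CRE core (read on the minus strand) and E-box began 13 and 17 bases into the transcript and share bases, which makes the last capital run. The Ptges window held a pair of GC boxes, 53 and 42 bases before the start. The windows of Pla2g4a and Ptgs1, like that of Ptger2, held none of these letters. Over all 32851 RefSeq windows of this length, the E-box was found in 6.79%, the CRE core in 7.26%, the C/EBP palindrome in 0.180%, the GC box in 34.7% and the TATA box in 13.1%. A GC box was also present in the windows of Hpgd, Ptger4, Ptgir and Ptgfr, and a TATA box only in that of Hpgd among the 9. The GENCODE start of Ptges lies 26566 bases further upstream, because a 543-base processed transcript begins there; the RefSeq window is that of its coding transcript. Ptgs2 (150100031 to 150108227) and Pla2g4a (149829618 to 149961290) both lie on chromosome 1, read away from each other with starts 138741 bases apart and no protein-coding gene between them.

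The other members are spread over the genome (GRCm38, GENCODE gene bounds). On chromosome 2 lie Ptges (30889471 to 30929863, minus strand), Ptgs1 (36230426 to 36252272, plus strand) and Ptgis (167191805 to 167240604, minus strand). Hpgd lies on chromosome 8 (56294585 to 56321043, plus strand). Of the receptor genes, Ptgfr lies on chromosome 3 (151796502 to 151837630, minus strand), Ptgir on chromosome 7 (16906490 to 16910905, plus strand), Ptger2 on chromosome 14 (44988195 to 45003820, plus strand) and Ptger4 on chromosome 15 (5206661 to 5244187, minus strand). Ptger4 overlaps the coding gene Ttc33 on the opposite strand, which had 353 to 716 counts per culture, and was split to fractions of a read in 4 cultures. Ptgs2 and Ptgir overlap no annotated gene.

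**Figure D1:**
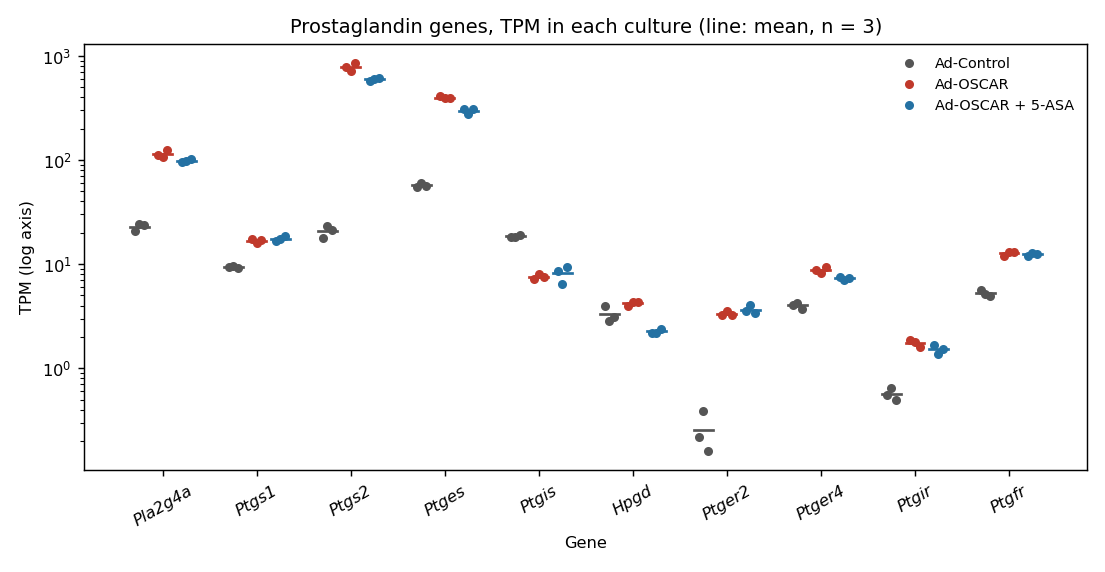
Level of the 10 prostaglandin genes in TPM (transcript level scaled for length and depth, log axis) in each of the 9 cultures, with a line at each group's mean (n = 3). Ptgs2 moves from about 20.7 TPM with Ad-Control to 779 with Ad-OSCAR, and the 5-ASA-treated cultures stay close to the Ad-OSCAR cultures for most of the genes, with Hpgd set apart below both other groups.

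The first comparison, Ad-OSCAR against Ad-Control, asks what OSCAR overexpression did to the pathway. Of the 10 genes 8 rose, led by Ptgs2, Ptger2 and Ptges, Ptgis fell, and Hpgd did not pass the test. Over all genes tested, 65% passed the same threshold (Benjamini-Hochberg adjusted p below 0.05), 32.7% higher and 32.2% lower, so passing it was common. The median log2 fold change of the 10 genes was 1.38, beside 0.02 for all genes tested. By the study's own cut-offs for this comparison (a log2 fold change beyond 1.5 and an adjusted p below 0.05), 5 of the 10 were higher (Ptgs2, Ptger2, Ptges, Pla2g4a and Ptgir) and none lower, against 9.96% of all genes, 4.57% higher and 5.39% lower. On the CPM scale the 2 groups of cultures did not overlap in 9 of the 10 genes, where 69% of all genes did not overlap.

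At the head of the pathway, Pla2g4a stood at 20.6, 24.2 and 23.8 TPM in the Ad-Control cultures and at 112, 108 and 125 TPM in the Ad-OSCAR cultures. The groups lay far apart, and the fitted change was 4.69-fold (log2 2.23, SE 0.06, adjusted p = 5.26e-16).

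The cyclooxygenases both rose, to very different extents. Ptgs2 was at 17.7, 23.2 and 21.2 TPM with Ad-Control and at 779, 711 and 848 TPM with Ad-OSCAR. That was a 36.9-fold rise (95% interval 32.8 to 41.4; adjusted p = 3.57e-19), the largest among the 10 genes. Ptgs1 was at 9.45, 9.68 and 9.24 TPM with Ad-Control and at 17.4, 15.8 and 17.1 TPM with Ad-OSCAR, 1.79-fold higher (interval 1.63 to 1.96; adjusted p = 1.37e-09). In each culture the level of Ptgs2 exceeded that of Ptgs1, and the ratio of their TPM was 2.19 ± 0.274 (SD, n = 3) in Ad-Control cells, 46.5 ± 2.61 under OSCAR and 33.9 ± 1.03 after 5-ASA. These ratios, which were not tested, ran from 1.88 to 2.40, from 44.9 to 49.5 and from 32.8 to 34.6 over the cultures, without overlap.

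The terminal synthases went in opposite directions. Ptges, the synthase for prostaglandin E2, was at 54.4, 59.9 and 56.6 TPM with Ad-Control and at 408, 394 and 391 TPM with Ad-OSCAR, and its counts rose 8.24-fold (log2 3.04, SE 0.05, adjusted p = 7.18e-19). Ptgis, the synthase for prostacyclin, was at 18.4, 18.0 and 19.1 TPM with Ad-Control and at 7.17, 8.09 and 7.55 TPM with Ad-OSCAR, and fell 2.43-fold (SE 0.10 on the log2 scale, adjusted p = 4.17e-09). The Ptges to Ptgis ratio of TPM was therefore 3.09 ± 0.207 with Ad-Control and 52.5 ± 4.17 with Ad-OSCAR (SD, n = 3). It was 37.3 ± 5.37 with 5-ASA.

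Hpgd, the catabolic enzyme, was low throughout. Its levels of 4.0, 2.87 and 3.08 TPM with Ad-Control and 3.99, 4.29 and 4.31 TPM with Ad-OSCAR overlapped, with a log2 fold change of 0.31 (95% interval -0.01 to 0.64, adjusted p = 0.0816). The first Ad-Control culture was the high one of its group; without it the log2 fold change was 0.47 and passed the test (adjusted p = 0.0214). A limma fit on log2(TPM + 1) also passed it, narrowly (adjusted p = 0.0494).

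All 4 receptors rose. Ptger2, the EP2 receptor, was barely detected with Ad-Control (0.22, 0.39 and 0.16 TPM, or 10, 17 and 6 counts) and was at 3.23, 3.52 and 3.24 TPM (168 to 185 counts) with Ad-OSCAR, a 12.4-fold rise (interval 9.29 to 16.7; adjusted p = 1.49e-11). Ptger4, the EP4 receptor, was at 4.04, 4.27 and 3.74 TPM with Ad-Control and at 8.72, 8.28 and 9.29 TPM with Ad-OSCAR, 2.14-fold higher (adjusted p = 1.10e-09). Ptgir went from 0.55, 0.65 and 0.50 TPM to 1.88, 1.79 and 1.60 TPM, a 3.13-fold rise (interval 2.35 to 4.16; adjusted p = 6.89e-07). Ptgfr, at 5.60, 5.16 and 4.99 TPM with Ad-Control, was at 12.01, 12.9 and 13.02 TPM with Ad-OSCAR, 2.17-fold higher (adjusted p = 7.27e-11). No Ad-OSCAR culture overlapped an Ad-Control culture in any of the 4.

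Limits on these receptor values are their depth and their neighbours. Ptger2 had a mean above the low-count limit in all 3 groups. With Ad-Control it had only 10, 17 and 6 counts, so its fold rests on a low base, and a filter of at least 10 counts in every culture drops it. On the log2(TPM + 1) scale the log2 fold change was 1.79 for Ptger2 (3.64 from counts) and 0.82 for Ptgir (1.65 from counts), since the added 1 TPM compresses low levels. Ptger2 also overlaps Gm49364 and Gm17173 on the opposite strand, whose counts moved the same way (15.9 to 56.7 for Gm49364 with Ad-Control, 99.0 to 117 under Ad-OSCAR and 146 to 213 with 5-ASA; 13 to 19, 58.8 to 77.3 and 89.6 to 151 for Gm17173). The kit was stranded but the strand setting used in counting is not given in the sources used here, so how far these genes share reads was not tested.

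**Figure D2:**
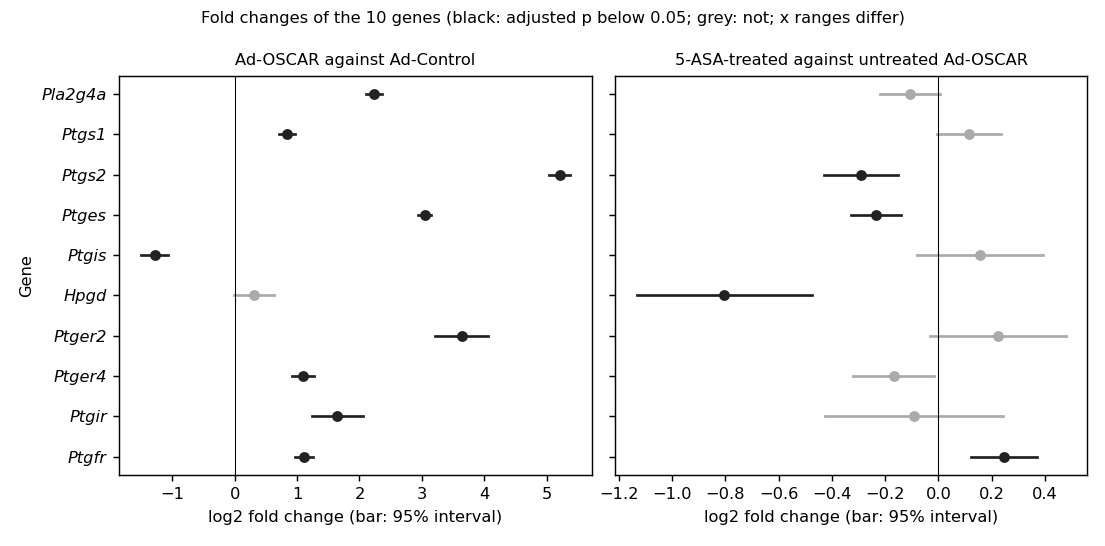
Log2 fold change of each of the 10 genes from the edgeR fit, for Ad-OSCAR against Ad-Control (left) and for 5-ASA-treated against untreated Ad-OSCAR cultures (right), with bars for the 95% interval, on different x ranges. Black points passed an adjusted p of 0.05 and grey points did not; 9 of 10 are black on the left, from -1.28 to 5.20, and 4 of 10 on the right, from -0.80 to 0.25.

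The second comparison, Ad-OSCAR+5-ASA against Ad-OSCAR, asks what 5-ASA did to cells that overexpress OSCAR. Ptgs2, Ptges and Hpgd fell, Ptgfr rose, and the other 6 genes did not pass the test. That is 4 of 10 genes, where 17.8% of all genes tested passed it (10.4% higher, 7.38% lower). By the cut-offs the study set for treated cells against Ad-Control (a fold beyond 1.5 and an unadjusted p below 0.05), applied here to treated against untreated Ad-OSCAR cells, only Hpgd was called, lower, against 4.15% of all genes (1.87% lower). On the CPM scale the 2 groups did not overlap in 7 of the 10 genes, 2 higher and 5 lower with 5-ASA, where 33.8% of all genes did not overlap. The median log2 fold change of the 10 genes was -0.10, and that of all genes -0.00435. This comparison uses the same Ad-OSCAR cultures as the first, so the falls of Ptgs2 and Ptges are not independent of their rises. Over all genes, the fit called 1598 higher and 1134 lower, while limma on log2(TPM + 0.1) called 560 higher and 1439 lower, with a median of -0.10. Saa3 alone held 12.9% of all TPM with Ad-OSCAR and 14.8% with 5-ASA, and its part in the difference between the scales was not tested.

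Hpgd showed the largest change of the 10. It was at 3.99, 4.29 and 4.31 TPM (95 to 104 counts) in the Ad-OSCAR cultures and at 2.20, 2.17 and 2.39 TPM (55 to 57 counts) in the treated cultures, without overlap, a 1.75-fold fall (log2 -0.80, SE 0.16, adjusted p = 0.00131). Under the 17 alternatives its log2 fold change ran from -0.87 to -0.68, and each kept it past the threshold.

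Ptgs2 fell from 779, 711 and 848 TPM to 575, 598 and 613 TPM, with no overlap, 1.22-fold by counts (log2 -0.29, SE 0.07, adjusted p = 0.00417). Ptges fell from 408, 394 and 391 TPM to 308, 276 and 309 TPM, also without overlap, 1.18-fold by counts (log2 -0.24, SE 0.04, adjusted p = 0.00108). On the log2(TPM + 1) scale the fall of Ptges was larger, at -0.42, where the median of all genes was -0.08. Over the 17 alternatives the log2 fold change of Ptgs2 ran from -0.38 to -0.24. Both genes stayed well above Ad-Control. The ratio of Ptgs2 to Hpgd, the inducible cyclooxygenase beside the first enzyme of breakdown, was 6.46 ± 1.86 with Ad-Control, 186 ± 17.5 under Ad-OSCAR and 265 ± 9.86 with 5-ASA (TPM ratios, SD, n = 3, not tested).

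Ptgfr depended on the scale. Its counts of 687, 620 and 699 with Ad-OSCAR and 760, 807 and 739 with 5-ASA gave a 1.19-fold rise (log2 0.25, SE 0.06, adjusted p = 0.00715), while its levels of 12.01, 12.94 and 13.02 TPM and 12.04, 12.88 and 12.38 TPM overlapped and gave a log2 fold change of -0.02 by limma on log2(TPM + 1) (adjusted p = 0.866). Its estimated transcript length, by which TPM is divided, was longer in the treated cultures (below). Without the first Ad-OSCAR culture the rise by counts was 0.20 on the log2 scale and did not pass the test (adjusted p = 0.0601).

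The remaining genes did not pass, with intervals that bound the change. Pla2g4a was at 94.7, 98.9 and 102 TPM with 5-ASA, below every Ad-OSCAR culture, with a log2 fold change of -0.11 (interval -0.22 to 0.01; adjusted p = 0.197). Ptgs1, at 16.7, 17.3 and 18.7 TPM, had a log2 fold change of 0.11 (-0.01 to 0.23; adjusted p = 0.186). Ptger4, at 7.56, 7.0 and 7.36 TPM, lay below every Ad-OSCAR culture, with -0.17 (-0.32 to -0.01; adjusted p = 0.125). Ptger2, at 3.53, 4.01 and 3.36 TPM, had 0.22 (-0.03 to 0.48; adjusted p = 0.224), and Ptgir, at 1.66, 1.37 and 1.52 TPM, had -0.09 (-0.43 to 0.24; adjusted p = 0.751). Ptgis was the most scattered of the 10 in this group, at 8.56, 6.39 and 9.44 TPM, with 0.16 (-0.08 to 0.39; adjusted p = 0.385); without the second treated culture, the low one, it was 0.30 and passed the test (adjusted p = 0.0479).

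The third comparison set the treated cultures against Ad-Control, to show where the pathway stood after 5-ASA. All 10 genes passed the test, 8 higher and 2 lower (Ptgis and Hpgd), where 63.2% of all genes did (31.4% higher and 31.8% lower); by the study's cut-offs for this comparison 9 of 10 were called, against 29.9%. Ptgs2 was still 30.1-fold higher than with Ad-Control (interval 26.8 to 33.8), Ptger2 14.5-fold, Ptges 7.0-fold, Pla2g4a 4.36-fold, Ptgir 2.93-fold, Ptgfr 2.57-fold, Ptgs1 1.94-fold and Ptger4 1.90-fold. Ptgis was 2.18-fold lower (adjusted p = 2.52e-08). Hpgd was 1.40-fold lower (adjusted p = 0.0157), a call lost without the first Ad-Control culture (log2 -0.33, adjusted p = 0.116). Over all genes this fit called 4825 higher and 4880 lower, and limma on log2(TPM + 1) called 3352 and 5069.

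The order of the 10 levels, which TPM makes comparable between genes, changed with OSCAR. With Ad-Control the order was Ptges, Pla2g4a, Ptgs2, Ptgis, Ptgs1, Ptgfr, Ptger4, Hpgd, Ptgir and Ptger2, from 57.0 ± 2.77 to 0.257 ± 0.119 TPM (SD, n = 3), with overlap between the neighbours Pla2g4a and Ptgs2, Ptgs2 and Ptgis, and Ptger4 and Hpgd. With Ad-OSCAR Ptgs2 led at 779 ± 68.4 TPM, then came Ptges, Pla2g4a, Ptgs1, Ptgfr, Ptger4, Ptgis, Hpgd, Ptger2 and Ptgir, at 1.76 ± 0.143 TPM, and no neighbours overlapped. Ptgis thus moved from place 4 to place 7. With 5-ASA Ptgs2 (596 ± 19.1 TPM), Ptges and Pla2g4a kept their places, and the changes of order were Ptgis with Ptger4, which overlapped, and Ptger2 with Hpgd, which did not.

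**Figure D3:**
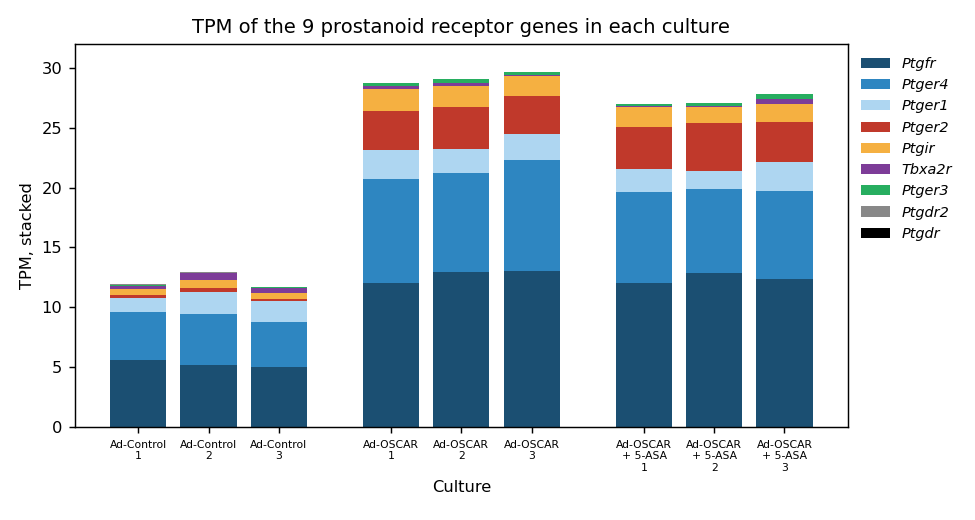
Stacked TPM of the 9 prostanoid receptor genes in each culture, from 0. The stack stands at 11.7 to 12.9 TPM with Ad-Control, 28.8 to 29.7 under Ad-OSCAR and 27.01 to 27.8 with 5-ASA; Ptgfr and Ptger4 make most of it in every culture, and the Ptger2 layer is thin with Ad-Control and broad in the other 2 groups.

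Among the 9 prostanoid receptor genes, Ptgfr and Ptger4 held the largest shares in every group. The summed level was 12.2 ± 0.666 TPM with Ad-Control, 29.2 ± 0.465 under Ad-OSCAR and 27.3 ± 0.441 with 5-ASA (SD, n = 3). Ptger2 made up 2.07% ± 0.846 of it with Ad-Control, 11.4% ± 0.611 under Ad-OSCAR and 13.3% ± 1.38 with 5-ASA, the last 2 groups overlapping. Ptger4 made up 32.9% ± 0.867, 30.02% ± 1.45 and 26.8% ± 1.11 in the same order, the groups not overlapping. Ptgfr made up 43.2% ± 3.49, 43.4% ± 1.42 and 45.5% ± 1.73, with Ad-Control overlapping both others. Ptger1, another prostaglandin E2 receptor, made up 13.1% ± 3.07 with Ad-Control and 7.49% ± 0.857 with Ad-OSCAR, at levels of 1.59 ± 0.384 and 2.18 ± 0.228 TPM. Ptgdr, a prostaglandin D2 receptor, was listed at 0 in all 9 cultures. None of these shares was tested.

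**Figure D4:**
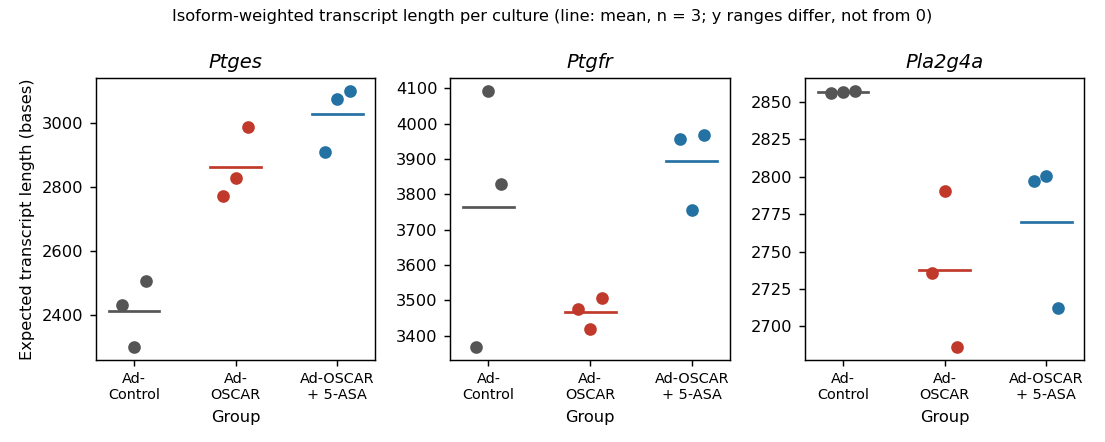
Transcript length in bases, weighted by the estimated isoform shares, of Ptges, Ptgfr and Pla2g4a in each culture, with a line at each group's mean (n = 3); the y axes differ and do not start at 0. Ptges lies between 2300 and 2505 bases with Ad-Control and at 2772 bases or more in the other cultures, Ptgfr is shortest with Ad-OSCAR apart from an Ad-Control culture at 3368 bases, and Pla2g4a is nearly constant with Ad-Control.

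Isoform mix, as far as the files estimate it, differed between groups for some of the genes. The expected length of a gene weights its transcripts by their estimated shares. For Ptges it was 2429, 2300 and 2505 bases with Ad-Control, 2772, 2826 and 2986 under Ad-OSCAR and 2910, 3075 and 3098 after 5-ASA. The Ad-Control cultures lay below all others, that is further from the single coding transcript (3647 bases) and nearer to the 3 processed transcripts of 703, 543 and 446 bases. For Ptgfr it was 3368, 4092 and 3830 bases with Ad-Control, 3476, 3418 and 3507 under Ad-OSCAR and 3958, 3755 and 3969 after 5-ASA, the last 2 groups without overlap; its coding transcripts are 6624 and 1535 bases long, and its count was not a whole number in any of the 9 cultures, which happens where reads are split between genes. It overlaps Gm43618 on the opposite strand, at 9.18 to 48.1 counts over the cultures; how far the 2 share reads was not tested. For Pla2g4a it was 2856 to 2857 bases with Ad-Control, close to the 2856 bases of its main coding transcript, and 2686 to 2790 with Ad-OSCAR. Ptgs2 and Hpgd stayed at 4453 and 1683 bases in all cultures. Such lengths rest on the estimated isoform shares and were not tested.

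**Figure D5:**
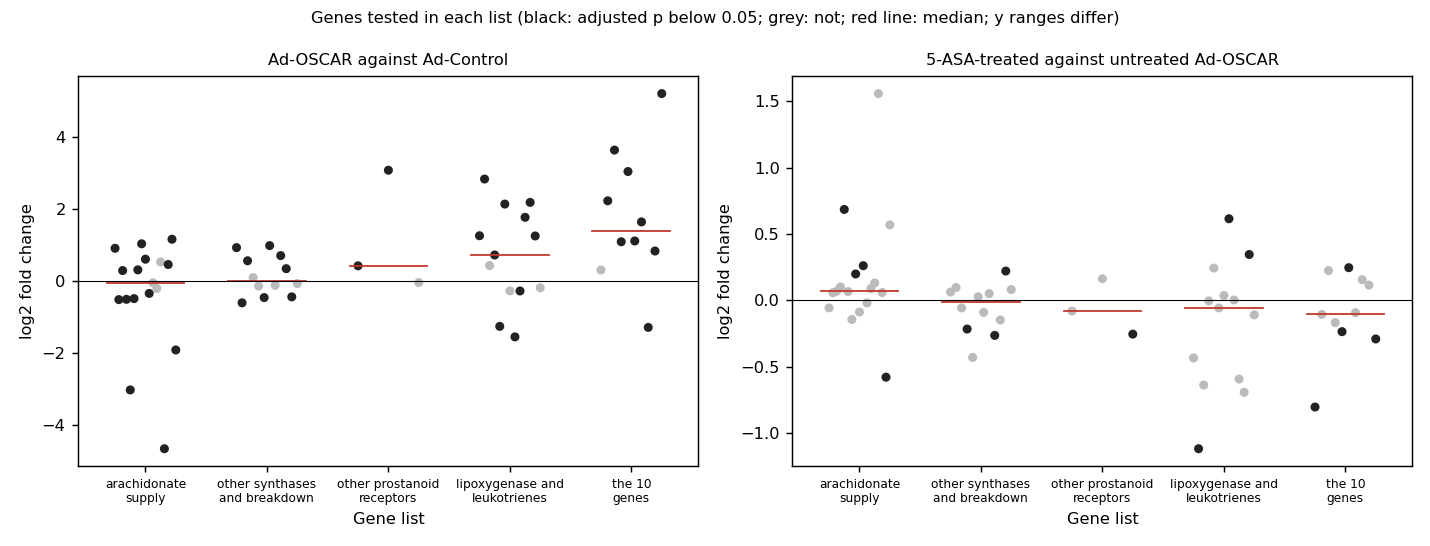
Log2 fold change of every tested gene in 4 lists of other eicosanoid genes and in the 10 prostaglandin genes, for Ad-OSCAR against Ad-Control (left) and 5-ASA-treated against untreated Ad-OSCAR cultures (right), with a red line at each list's median and different y ranges. Black points passed an adjusted p of 0.05. On the left the 10 genes have the highest median, 1.38, and the lists for arachidonate supply and for other synthases and breakdown have medians of -0.04 and 0.02.

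The rest of the eicosanoid pathway was read from 4 lists of 69 genes in all, of which 45 were tested. Ad-OSCAR raised 21 of these and lowered 13 (median log2 fold change 0.30), and by the study's cut-offs 5 were higher and 4 lower. After 5-ASA 6 were higher and 5 lower (median 0.03), and the fold of 1.5 with an unadjusted p below 0.05 called 3 higher and 2 lower. These counts stand beside the same backgrounds as above, 65% and 17.8% of all genes by adjusted p. Of the 34 called with Ad-OSCAR, 6 (Pla2g5, Alox5, Dpep2, Ltb4r1, Ltb4r2 and Ptger3) had a mean above the low-count limit in only 1 of the 2 groups compared, so that they were tested only because they are high there, and their calls carry no weight in these counts. They make up 5 of the 21 higher and 1 of the 13 lower. All 5 genes higher by the study's cut-offs are among them, so no higher call by those cut-offs is left, and Pla2g5 is 1 of the 4 lower.

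In the list for arachidonate supply, 7 of 17 tested genes rose and 7 fell with Ad-OSCAR, the latter including Pla2g5, whose call carries no weight (above). Faah, which hydrolyses anandamide, fell 8.08-fold, and the phospholipase Plb1 fell 3.75-fold. Pla2g5, a secreted phospholipase A2 named after its values were seen because its mean was below 1 CPM, had 43, 47 and 18 counts with Ad-Control, 1, 1 and 3 with Ad-OSCAR and 6, 4 and 5 after 5-ASA; the Ad-OSCAR counts are too low for a fold. Pla2g7, the platelet-activating factor acetylhydrolase, rose 2.24-fold, and Mgll, monoacylglycerol lipase, rose 2.05-fold. With 5-ASA 3 genes rose and 1 fell: Faah rose 1.61-fold (adjusted p = 0.00559), Pla2g15 (lysosomal phospholipase A2) 1.20-fold and Mgll 1.15-fold, and Pla2g7 fell 1.49-fold (adjusted p = 0.0307). Both sets of values for Faah, Pla2g7 and Mgll share the Ad-OSCAR cultures.

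Of 12 tested genes for other prostanoid synthases, transport and breakdown, 5 rose and 3 fell with Ad-OSCAR, and none reached the study's fold cut-off. Ptges2, a further prostaglandin E synthase, rose 1.98-fold, Abcc4, an exporter of prostaglandins, 1.91-fold and Ptgr1, a prostaglandin reductase, 1.64-fold, and Akr1b3, an aldose reductase with prostaglandin F synthase activity, fell 1.51-fold. With 5-ASA Ptgr1 fell 1.20-fold (adjusted p = 0.00117), Cbr1, a carbonyl reductase, fell 1.16-fold (adjusted p = 0.0269) and Slco2a1, the prostaglandin transporter, rose 1.17-fold (adjusted p = 0.00448). Of the other receptor genes 3 were tested: Ptger1 rose 1.34-fold with Ad-OSCAR (adjusted p = 0.0402), Ptger3, named after its values were seen, had 2, 0 and 1 counts with Ad-Control and 12, 13 and 10 under Ad-OSCAR, and Ptgfrn, a membrane protein that binds the Ptgfr receptor, did not pass with Ad-OSCAR (log2 -0.03) and fell 1.19-fold with 5-ASA (adjusted p = 0.00361).

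The lipoxygenase and leukotriene branch had 13 tested genes, of which 7 rose and 3 fell with Ad-OSCAR. The 7 that rose include Alox5, Dpep2, Ltb4r1 and Ltb4r2, whose calls carry no weight (above). Mgst2, with leukotriene C4 synthase activity, rose 2.39-fold, and Ggt5, a leukotriene C4 hydrolase, fell 2.91-fold and Cysltr1, a cysteinyl leukotriene receptor, 2.38-fold. Dpep2, a dipeptidase that acts on leukotriene D4 (the lower of the gene IDs with this name), had 7, 10 and 8 counts with Ad-Control and between 44.5 and 48.9 with Ad-OSCAR. With 5-ASA Ggt5 rose 1.53-fold (adjusted p = 0.0371) and Mgst2 1.27-fold (adjusted p = 0.0406), and 1 gene of the branch fell, Alox5 (log2 -1.12, adjusted p = 0.0237), named here after its values were seen because its mean was below 1 CPM. Alox5, 5-lipoxygenase, had 4 counts in each Ad-Control culture, 42, 45 and 23 under Ad-OSCAR and 13, 13 and 23 after 5-ASA, and on the CPM scale the last 2 groups overlapped (0.837 to 1.85 and 0.474 to 0.909).

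Finally, the tested genes whose centred log2 CPM over the 9 cultures lay closest to each cyclooxygenase were found by root mean square difference. For Ptgs2 they were Il13ra2 (0.146), Slc15a3 (0.160) and Cxcl2 (0.228), with log2 fold changes of 4.96, 5.27 and 5.58 with Ad-OSCAR and -0.11, -0.32 and -0.15 with 5-ASA. For Ptgs1 they were Cers6 (0.03), Nrp2 (0.04) and Bhlhe40 (0.04), with log2 fold changes of 0.89, 0.79 and 0.82 with Ad-OSCAR and 0.10, 0.14 and 0.14 with 5-ASA. In a design of 3 groups such likeness rests on the 3 group means.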

How the data were processed

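The authors made 1 file per culture with STAR 2.7.1a and RSEM 1.3.1 on GRCm38 (per the labels and the submitters' processing notes; GENCODE M21 gene names matched 55144 of 55471 IDs). The deposited expected counts (8.97 to 10.1% of values not whole) were rounded and tested with edgeR 4.0.16 (quasi-likelihood F test, TMM, filterByExpr, all 9 cultures, groups as labelled, Benjamini-Hochberg over 15362 genes). The deposited TPM served for levels, ratios and shares, which carry no test, and, with a pseudocount of 1 or 0.1, for limma 3.58.1. A standard error is the absolute log2 fold change over the root of F. On simulated counts for Ad-OSCAR against Ad-Control, 195 of 200 changed genes were recovered, with 6 false calls among 15127 genes. Replicate numbers did not pair the cultures (same-number correlations -0.0724 to 0.0402, 9 pairs).

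The members and lists were chosen with earlier results of these data known. Named were all 10 members, Oscar, up to 4 genes per list with the largest log2 fold change among those with an adjusted p below 0.05 and a mean of at least 1 CPM, and the 3 genes nearest each cyclooxygenase. Promoter windows came from RefSeq. Alternatives were DESeq2 1.42.0, RLE scaling, other filters, the compared groups alone, a replicate block, TPM scales and leaving out each culture.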

Additional observations from a re-analysis of the deposited data

How the results depend on the processing

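Of 507 fold changes of the 10 genes recomputed under up to 17 alternatives, 500 kept their direction and their side of the threshold. The exceptions were Ptgfr with 5-ASA, which was -0.0234 and -0.0251 on the log2(TPM + 1) and log2(TPM + 0.1) scales and lost its call without Ad-OSCAR replicate 1, and the calls of Hpgd and Ptgis given with their values above. Leaving out each culture in turn gave 9 to 10 of the 10 genes called with Ad-OSCAR, 3 to 5 with 5-ASA and 9 to 10 for treated against Ad-Control. With a replicate block the fit called 9, 4 and 10, as without it, and 34 and 10 of the other eicosanoid genes in the first 2 comparisons (34 and 11 without it); it changed no call of the 10 genes.

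The counts of other eicosanoid genes were less steady. With 5-ASA, 11 by adjusted p became 7 by DESeq2, 7 on log2(TPM + 0.1), and 6 to 12 when a culture was left out (6 without Ad-OSCAR replicate 1 or 3, 7 without treated replicate 1 or 2). By the fold of 1.5 with an unadjusted p below 0.05, 5 became 2 with at least 10 counts in every culture, 3 on log2(TPM + 0.1), 3 to 6 when a culture was left out (3 without Ad-OSCAR replicate 3 or treated replicate 3), and 0 by limma on log2(TPM + 1), where 14 had an unadjusted p below 0.05. With Ad-OSCAR, 9 by the study's cut-offs became 3 with at least 10 counts in every culture and 1 on log2(TPM + 1). The cause was not tested, beyond the fewer genes tested under the stricter filter, which also drops Ptger2. The Ptgfr share of receptor TPM with Ad-OSCAR was 41.6% in place of 43.4% with lengths fixed over the cultures, an alternative chosen after seeing the data.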
